A study of Homo sapiens with 6 samples.

Results

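The hypoxia-inducible genes outside glycolysis described here are VEGFA, ADM, NDRG1, BNIP3, DDIT4 and CA9. These are 6 genes on an array that names 20046, followed through 8 of its 47231 probes, 3 of VEGFA and 1 of each other gene. The probes were chosen by identifier, with no threshold on the measured values. The platform annotation names the gene of 7 of the 8 probes, and ILMN_1725139 is taken as CA9 from the list that defined the set. The array was the Illumina Human-HT12 BeadChip, on which biotin-labelled copies of RNA bind to bead-bound probes. The labelled copies were made from total RNA of SK-Hep1, a human line labelled as hepatocellular carcinoma. The control group, siLuc, and the group labelled as TARDBP knockdown, siTARDBP, held 3 samples each, and all came from this 1 line. The labels give no time after transfection, no oxygen level and no word on whether the 3 samples of a group were separate cultures, so the p-values below cover only how far these arrays scatter, and that scatter could be technical. The comparison asks what knockdown of TARDBP, which encodes the RNA-binding protein TDP-43, changes in these cells.

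Cells meet low oxygen through the hypoxia-inducible factors (HIF). With oxygen, prolyl hydroxylases of the EGLN family mark the HIF alpha subunits, and VHL sends them to degradation. Without it, the alpha subunits pair with ARNT, bind DNA at the core letters ACGTG or GCGTG of hypoxia response elements and recruit the coactivators EP300 and CREBBP. Liver tumours commonly hold hypoxic regions, and the target genes are often used as a readout of HIF activity.

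The promoters of the members are shown because their core letters are what the HIF complex reads. RefSeq's promoter table (GRCh38.p14) held 4 of the 6 member genes. Each sequence below runs 5′ to 3′ on the gene's own strand from 250 bases before the annotated start to 50 after it. Capitals mark ACGTG or GCGTG on either strand, so that CACGT and CACGC are the same letters read on the other strand.
BNIP3 (chr10:131981874-131982173, minus strand): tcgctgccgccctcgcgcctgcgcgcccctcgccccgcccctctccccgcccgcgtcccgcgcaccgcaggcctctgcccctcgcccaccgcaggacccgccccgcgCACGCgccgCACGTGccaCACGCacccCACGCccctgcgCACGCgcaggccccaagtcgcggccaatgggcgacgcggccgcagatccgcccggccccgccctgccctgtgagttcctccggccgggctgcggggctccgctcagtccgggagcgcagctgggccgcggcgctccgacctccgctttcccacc
DDIT4 (chr10:72273674-72273973, plus strand): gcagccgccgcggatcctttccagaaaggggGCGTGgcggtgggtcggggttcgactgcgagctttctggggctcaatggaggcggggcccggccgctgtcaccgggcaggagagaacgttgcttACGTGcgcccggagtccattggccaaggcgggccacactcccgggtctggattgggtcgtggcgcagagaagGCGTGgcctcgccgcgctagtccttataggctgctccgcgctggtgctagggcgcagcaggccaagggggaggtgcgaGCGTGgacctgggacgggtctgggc
ADM (chr11:10304823-10305122, plus strand): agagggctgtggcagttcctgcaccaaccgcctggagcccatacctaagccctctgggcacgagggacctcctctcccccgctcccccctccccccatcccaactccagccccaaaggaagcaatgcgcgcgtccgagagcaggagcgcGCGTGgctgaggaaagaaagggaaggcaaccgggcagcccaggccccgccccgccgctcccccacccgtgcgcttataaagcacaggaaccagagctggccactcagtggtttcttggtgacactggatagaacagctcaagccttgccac
CA9 (chr9:35673678-35673977, plus strand): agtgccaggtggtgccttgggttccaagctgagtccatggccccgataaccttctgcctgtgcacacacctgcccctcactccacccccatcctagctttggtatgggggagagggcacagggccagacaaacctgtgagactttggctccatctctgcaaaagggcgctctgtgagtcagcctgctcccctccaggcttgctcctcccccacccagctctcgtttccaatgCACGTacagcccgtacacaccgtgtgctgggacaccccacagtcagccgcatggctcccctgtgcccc

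The BNIP3 window held 2 matches to ACGTG, which overlap as the palindrome CACGTG and start at -134 and -133 from the gene's start, and 4 matches to GCGTG. The DDIT4 window held 1 ACGTG at -125 and 3 GCGTG, the ADM window 1 GCGTG at -101 and no ACGTG, and the CA9 window 1 ACGTG at -18 and no GCGTG. Of all 35116 promoters of this length in the table, 21.4% held ACGTG, 36.5% held GCGTG and 48.4% held at least 1 of them on either strand. A match is a string of letters, not a measured binding site.

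The labels were checked first. The TARDBP probe ILMN_1677532 had raw intensities of 265, 214 and 203 in siLuc replicates 1, 2 and 3 and of 136, 84.0 and 96.5 in siTARDBP. All 3 siTARDBP arrays lay below all 3 siLuc arrays, with a normalised log2 difference of -0.98, siTARDBP minus siLuc throughout (standard error 0.11, limma adjusted p = 1.6e-05), and 2 of the 3 siTARDBP arrays still measured it above background. A probe annotated to TARDBPP3, a transcribed pseudogene of TARDBP, was chosen after its values were seen and had a log2 difference of -2.23 (ILMN_3200717, standard error 0.093, limma adjusted p = 3.2e-10); whether it reads TARDBP RNA was not tested. The labelled cell type was less clear on these arrays. Of 9 hepatocyte markers with a probe, 1 (SERPINA1) exceeded background on all 6 arrays and 6, among them APOA1, TTR and TF, on none. Of 10 endothelial markers only ENG did so on all 6 and 8 exceeded background on none, while 4 of 9 mesenchymal markers (VIM, SPARC, THY1 and ACTA2) did so on all 6 and 3 (FN1, PDGFRB and LUM) on none. Of 5 blood cell markers with a probe, 4 exceeded background on none of the arrays. Of these markers, ACTA2 was lower in siTARDBP (log2 difference -0.42, limma adjusted p = 0.0097) and the other 7 tested did not pass the threshold; the part of ACTA2-expressing cells in the results below was not tested.

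Of the 8 member probes, 4 were bright enough to be tested, and BNIP3 alone passed the threshold, lower in siTARDBP. A probe was tested if it exceeded an estimated background level on at least 3 of the 6 arrays, and called at an adjusted p of 0.05 over all tested probes. ADM, NDRG1, BNIP3 and DDIT4 exceeded background on all 6 arrays, CA9 and 2 of the VEGFA probes on none, and the third VEGFA probe on 1. Over all 15197 tested probes, 11.2% were called, 5.32% lower and 5.84% higher in siTARDBP, and 1 call among 4 tested members is too small a number to set against that share. Of the called probes, 52.3% were higher, against 27.8% with median scaling over all probes, and BNIP3 was called lower either way.

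**Figure D1:**
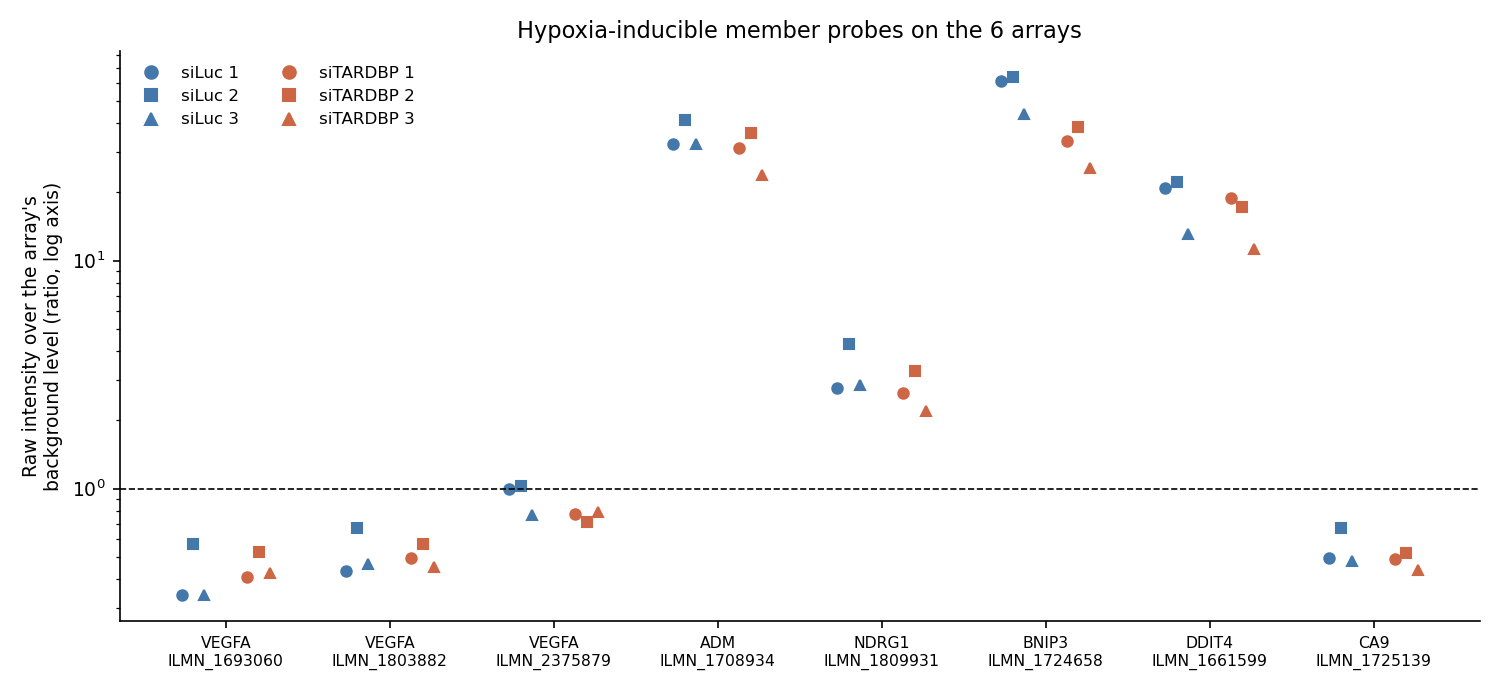
Raw intensity of each member probe divided by the background level of its own array (ratio, log axis), with siLuc in blue, siTARDBP in orange and 1 point per array. The dashed line marks the background level. ADM, NDRG1, BNIP3 and DDIT4 lie above it on all 6 arrays, while CA9 and 2 VEGFA probes lie below it throughout.

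BNIP3 encodes a protein of the outer mitochondrial membrane that ties damaged mitochondria to the autophagy machinery and belongs to the BH3-only group of the BCL2 family. Its probe ILMN_1724658 had raw intensities of 7151, 5236 and 5631 in siLuc replicates 1, 2 and 3 and of 3756, 3162 and 3023 in siTARDBP. Every siTARDBP array lay below every siLuc array. Of all tested probes, 29.4% had groups that did not overlap, 15.2% with siTARDBP the lower. The normalised log2 level averaged 12.46 ± 0.18 (SD, n = 3) over the siLuc arrays and 11.77 ± 0.062 (SD, n = 3) over the siTARDBP arrays. That made a log2 difference of -0.69, standard error 0.10, 95% interval -0.91 to -0.47 (1.62-fold lower, limma adjusted p = 0.00031). Of the 808 probes called lower, 90 fell further than BNIP3. The fall lay between -0.82 and -0.60 in 19 other settings, which varied the processing, the model or the arrays included. The highest limma adjusted p among them was 0.012, and the value of -0.60 came without siLuc replicate 1. The arrays numbered 2 stood apart by a lower background in both groups, and in the other 4 arrays alone the difference was -0.74 (standard error 0.14, limma adjusted p = 0.012). In bulk RNA, fewer cells that express a gene and less of its RNA per cell cannot be told apart. The RefSeq table lists 46 BNIP3 pseudogenes, and whether their RNA binds this probe was not tested.

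ADM encodes adrenomedullin, a secreted peptide that dilates vessels. Its probe ILMN_1708934 had raw intensities of 3758, 3377 and 4152 in siLuc replicates 1, 2 and 3 and of 3486, 2968 and 2796 in siTARDBP. The groups overlapped, with siTARDBP replicate 1 above siLuc replicate 2 before normalisation. The normalised levels differed by -0.13 (log2), standard error 0.095, 95% interval -0.33 to 0.072 (limma adjusted p = 0.43).

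NDRG1 encodes a cytoplasmic protein induced by stress and differentiation. The probe ILMN_1809931 read 321, 351 and 363 in siLuc and 293, 269 and 258 in siTARDBP. These raw values did not overlap, but the arrays differ in overall brightness. After normalisation the siLuc levels ran from 8.19 to 8.62 and the siTARDBP levels from 8.04 to 8.40 on the log2 scale, and the groups overlapped. They differed by -0.20 (log2), standard error 0.12, 95% interval -0.45 to 0.046 (limma adjusted p = 0.30). The difference was -0.11 without siLuc replicate 2 or without siTARDBP replicate 1 and -0.32 without siLuc replicate 1, and none of these passed.

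DDIT4, also called REDD1, encodes a stress-induced inhibitor of the growth-promoting kinase complex mTORC1. The probe ILMN_1661599 read 2411, 1805 and 1685 in siLuc and 2111, 1414 and 1326 in siTARDBP. In both groups replicate 1 was the brightest array, and siTARDBP replicate 1 lay above siLuc replicates 2 and 3. The normalised levels differed by -0.11 (log2), standard error 0.12, 95% interval -0.36 to 0.13 (limma adjusted p = 0.59). Single arrays moved this value: it was -0.032 without siTARDBP replicate 3, -0.035 without siLuc replicate 1, -0.073 without siLuc replicate 2, -0.20 without siTARDBP replicate 1 and -0.23 without siLuc replicate 3, and none of these passed.

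**Figure D2:**
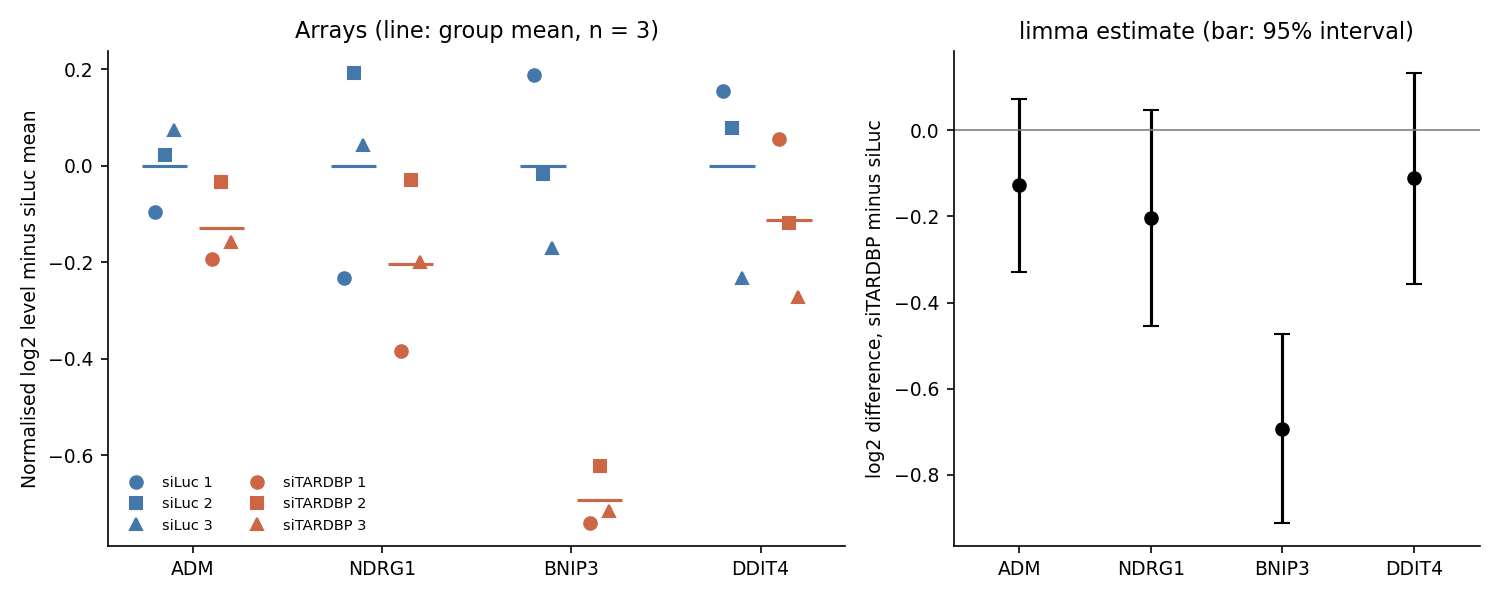
The left panel shows the normalised log2 level of the 4 tested members on each array, less the siLuc mean of that probe, with lines at the group means (n = 3). The right panel shows limma's log2 difference, siTARDBP minus siLuc, with its 95% interval. The interval of BNIP3, -0.91 to -0.47, lies wholly below 0, and those of ADM, NDRG1 and DDIT4 reach across 0.

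The lower ends of the ADM, NDRG1 and DDIT4 intervals all lay above the BNIP3 estimate of -0.69. Whether the BNIP3 change differed from theirs was tested on the difference between 2 probes within each array, compared between groups by an exact permutation test. The pairs set the only called member against the others, so they were picked from these same values. All 3 share the BNIP3 values and are not separate results. The BNIP3 change minus that of ADM was -0.56 (standard error 0.15), minus that of NDRG1 -0.49 (standard error 0.22) and minus that of DDIT4 -0.58 (standard error 0.12). In all 3 pairs the groups stood apart, giving a two-sided exact permutation p of 0.1, also after adjustment over the 3 pairs. This is the smallest p that the permutation test can give with 3 arrays against 3, so that test cannot pass 0.05, and no other test of these differences was run.

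VEGFA encodes the main growth factor of blood vessels, and no VEGFA probe gave a level that could be compared. ILMN_1693060 read 39.8, 46.6 and 43.5 in siLuc and 45.7, 43.0 and 50.3 in siTARDBP. ILMN_1803882 read 50.3, 54.7 and 59.6 in siLuc and 55.3, 46.9 and 53.3 in siTARDBP. Both were below background on every array and their groups overlapped. ILMN_2375879 read 116, 83.5 and 98.3 in siLuc and 86.8, 58.8 and 92.9 in siTARDBP, and it exceeded background on siLuc replicate 2 alone, by a ratio of 1.02. Its normalised groups did not overlap but nearly met, at 6.691 on siLuc replicate 3 and 6.690 on siTARDBP replicate 3. No fold is given for any of them, and a signal under background does not show that the transcript is absent.

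The 3 VEGFA probes are annotated to 3 different RefSeq transcripts, and their changes were compared with each other in the same way as above. The difference of changes was 0.32 for ILMN_1693060 minus ILMN_2375879 (standard error 0.13, two-sided exact permutation p = 0.1, adjusted over 3 pairs p = 0.15). For ILMN_1693060 minus ILMN_1803882 it was 0.14 (standard error 0.044, exact permutation p = 0.1, adjusted p = 0.15). For ILMN_1803882 minus ILMN_2375879 it was 0.18 (standard error 0.15, exact permutation p = 0.4, adjusted p = 0.4). The permutation test cannot go below 0.1 with 3 arrays against 3. ILMN_1693060 and ILMN_1803882 lay below background on every array and ILMN_2375879 exceeded it on 1 alone. These are therefore differences between dim signals and do not compare VEGFA levels. Without siLuc replicate 1, the value for ILMN_1803882 minus ILMN_2375879 was 0.060 and that for ILMN_1693060 minus ILMN_2375879 was 0.21. Without siTARDBP replicate 2, the former was 0.12. With an offset of 16 in place of 50 in the background correction, the first of these values became 0.53 and the second 0.29, while the third was 0.24.

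**Figure D3:**
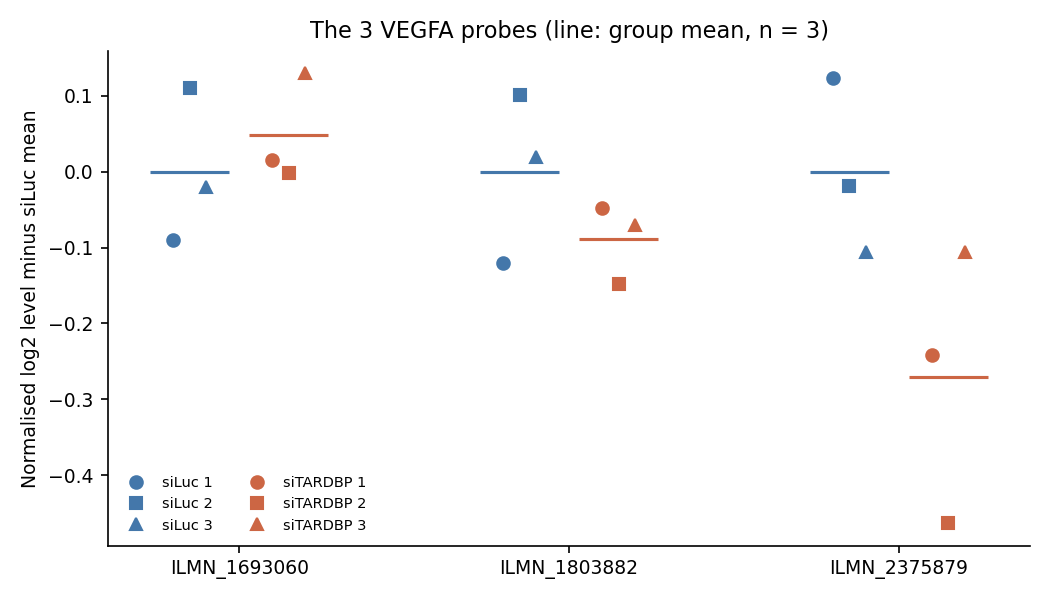
Normalised log2 level of the 3 VEGFA probes on each array, less the siLuc mean of the same probe, with lines at the group means (n = 3). The groups overlap for ILMN_1693060 and ILMN_1803882, and for ILMN_2375879 siLuc replicate 3 and siTARDBP replicate 3 lie at nearly the same height.

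CA9 encodes a carbonic anhydrase of the cell surface that helps tumour cells dispose of acid. The probe ILMN_1725139 read 57.4, 54.6 and 61.6 in siLuc and 54.9, 42.8 and 52.2 in siTARDBP. All 6 values were below the background level of their array, at ratios of 0.44 to 0.67, so no fold is given. The normalised CA9 groups did not overlap, at 6.14 to 6.22 in siLuc and 5.85 to 6.06 in siTARDBP. Groups also stood apart for 29.4% of all tested probes, and below background this is not read as a change.

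The pathway around these genes was read from 8 lists with 93 genes, of which 87 had a probe and 58 were tested, each by its brightest tested probe. Of the 58 genes, 8 were called lower, 4 higher and 46 did not pass, beside 11.8% called among all 9339 named and tested genes, 6.36% lower and 5.45% higher. The lists were drawn up with earlier results of these data known, so the counts are a description. The median log2 difference was -0.038 over the 58 genes and -0.022 over all named genes. Without siLuc replicate 2, and likewise without siTARDBP replicate 3, 5 of the 58 were called lower. Without siLuc replicate 3, siTARDBP replicate 1 or siTARDBP replicate 3, 2 were called higher.

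Among the parts of the oxygen-sensing machinery, 9 of 13 genes were tested. Beside 5.45% higher and 6.36% lower among all named and tested genes, 2 of these were called higher and none lower at an adjusted p of 0.05 by limma. Both are known to hold HIF activity down, but HIF activity was not measured here and its part in these results was not tested. CITED2, which competes with the HIF alpha subunits for EP300 and CREBBP, read 2231, 1914 and 2340 in siLuc and 4016, 3006 and 3268 in siTARDBP. Its log2 difference was 0.84 (standard error 0.093, limma adjusted p = 1.8e-05). HIF1AN, an asparaginyl hydroxylase that blocks the coactivators from the alpha subunits, read 252, 241 and 272 in siLuc and 523, 374 and 393 in siTARDBP. It was higher by a log2 difference of 0.82 (standard error 0.095, limma adjusted p = 2.6e-05). For both genes the groups stood clearly apart, and both were called in all 19 other settings. The HIF alpha subunits themselves did not pass. The brightest HIF1A probe had a log2 difference of -0.11 (standard error 0.12, limma adjusted p = 0.62) and its other 2 probes 0.19 and 0.15, while EPAS1 had -0.0076 (standard error 0.12, limma adjusted p = 0.98). VHL, EGLN1, EGLN2, EP300 and CREBBP did not pass either, at -0.079 to 0.16 by their brightest probes, and the probes of ARNT, ARNT2, EGLN3 and HIF3A were too dim to test.

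Of the other hypoxia-inducible genes, 27 of 35 were tested, of which 6 were called lower, 1 higher and 20 did not pass. That is 22.2% lower and 3.70% higher, beside 6.36% and 5.45% of all named and tested genes. The median log2 difference of the list was -0.17, beside -0.022 over all named genes. In the list 20 of the 27 lay below 0, a share that was not counted over all genes. The list was drawn up with earlier results known, so these counts are a description. The largest fall was that of AK4, an adenylate kinase of the mitochondrial matrix, whose probe ILMN_1764090 read 1006, 1095 and 1060 in siLuc and 430, 364 and 287 in siTARDBP. Its log2 difference was -1.39 (standard error 0.13, 2.61-fold lower, limma adjusted p = 2.9e-06), and the other 3 tested AK4 probes had -1.14 to -0.85, all called lower by limma. All 4 tested AK4 probes, of 5 on the array, thus went the same way, although 6 AK4 pseudogenes in the RefSeq table could share their signal. PFKFB4, a bifunctional enzyme that sets the level of an activator of phosphofructokinase, read 357, 351 and 403 in siLuc and 213, 168 and 149 in siTARDBP. Its log2 difference was -0.93 (standard error 0.11, limma adjusted p = 2.6e-05). TMEM45A, a membrane protein, was lower in both its tested probes, at -0.58 and -0.39 (limma adjusted p = 0.00088 and 0.016).

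The remaining 4 calls of that list are named here after their values were seen, except LOX. P4HA1, a catalytic subunit of the collagen prolyl hydroxylase, had a log2 difference of -0.54 (standard error 0.097, limma adjusted p = 0.0015) and was called in all 19 other settings. FAM162A had -0.46 (standard error 0.13, limma adjusted p = 0.033) with overlapping groups, and ANKRD37 had -0.32 (standard error 0.094, limma adjusted p = 0.038). LOX, which cross-links collagen and elastin, was the 1 gene called higher, at 0.34 (standard error 0.095, limma adjusted p = 0.026). The last 3 calls ended when single arrays were left out. FAM162A lost its call without siLuc replicate 2 or 3 or siTARDBP replicate 1 or 3 (limma adjusted p of 0.12 to 0.14), LOX without the same 4 arrays (0.079 to 0.11), and ANKRD37 without any 1 array but siTARDBP replicate 1 (0.070 to 0.13). Scaled by the median of all probes, LOX had 0.22 (standard error 0.15, limma adjusted p = 0.43). In the 4 arrays not numbered 2, neither LOX nor ANKRD37 passed (limma adjusted p = 0.12 and 0.24).

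**Figure D4:**
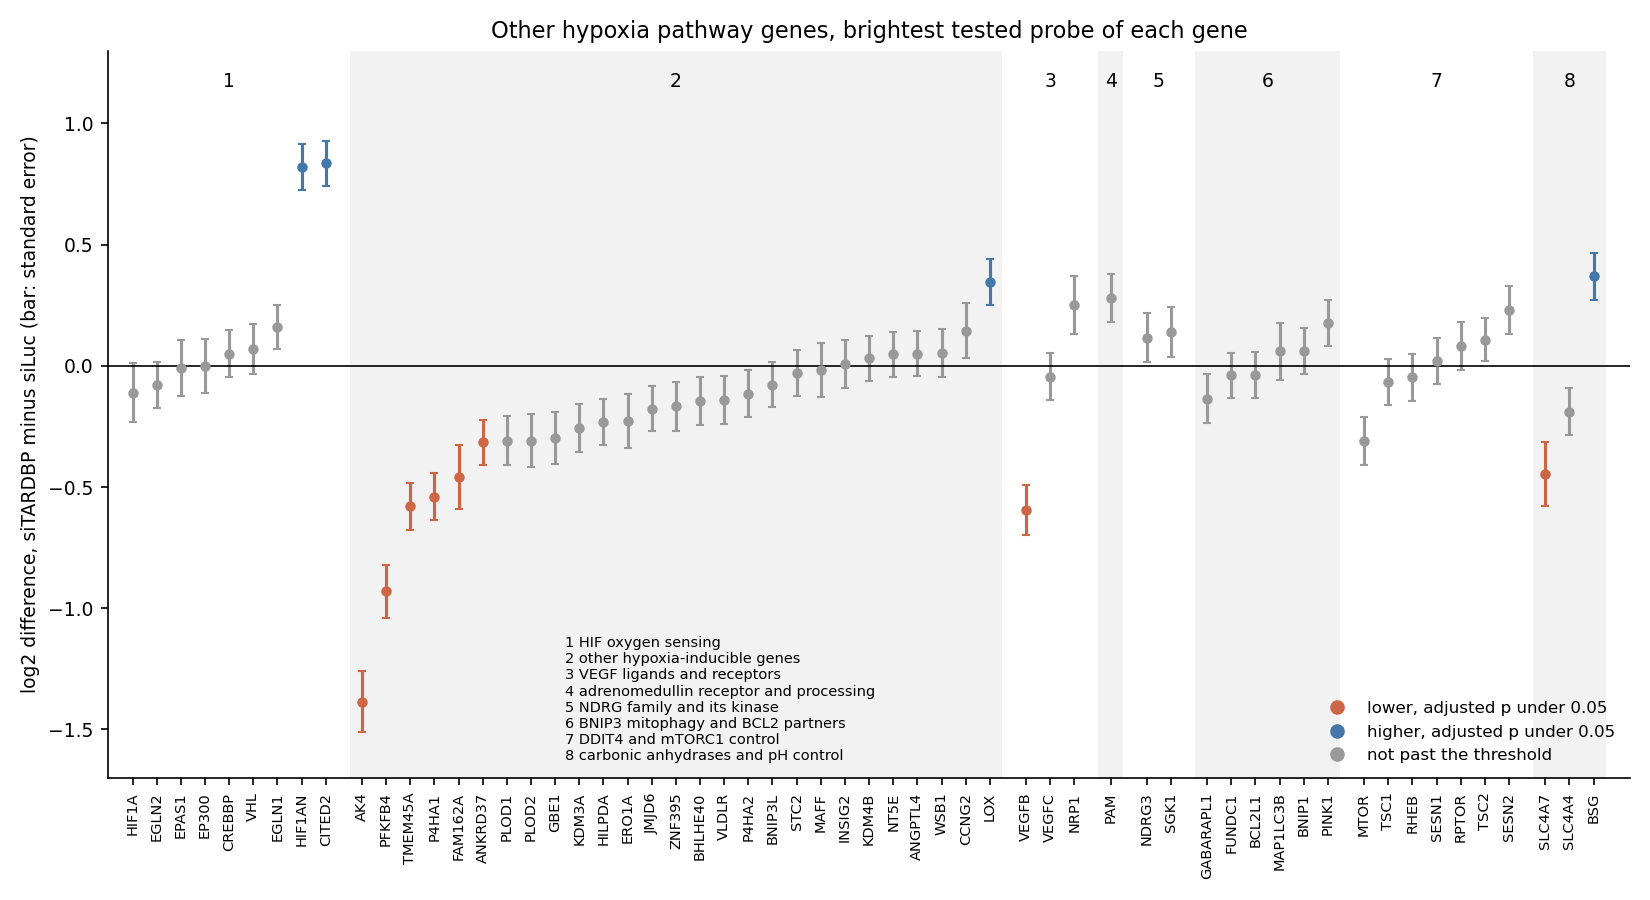
Log2 difference, siTARDBP minus siLuc, of the 58 tested pathway genes by their brightest tested probe, with the standard error as a bar, in 8 numbered lists. Genes called lower are orange, genes called higher are blue and the rest grey. CITED2 and HIF1AN stand highest at 0.84 and 0.82 and AK4 lowest at -1.39, with most genes near 0.

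The lists tied to single members held 1 to 7 tested genes each. These are too few to set against the 11.8% called among all named and tested genes. Of the VEGF ligands and receptors, 3 of 9 genes were tested. VEGFB, a ligand of the receptor FLT1, read 1791, 1482 and 1877 in siLuc and 1231, 982 and 816 in siTARDBP by its brightest probe. The log2 difference was -0.59 (standard error 0.10, limma adjusted p = 0.0013), while its other tested probe, ILMN_1722855, had -0.0091 (standard error 0.098, limma adjusted p = 0.97), so the VEGFB probes disagreed. VEGFC, a lymphatic growth factor, and the coreceptor NRP1 did not pass, at -0.044 and 0.25, and FLT1, KDR, FLT4 and NRP2 were too dim to test. Of the adrenomedullin receptor parts, CALCRL, RAMP1, RAMP2 and RAMP3 were all too dim to test. PAM, the enzyme that amidates adrenomedullin and other peptides, had a log2 difference of 0.28 (standard error 0.099, limma adjusted p = 0.081).

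Around BNIP3, none of 7 tested genes passed by its brightest probe at an adjusted p of 0.05 by limma. With 11.8% called among all named and tested genes, 7 genes are too few to read this as a lack of change. BNIP3L, the closest relative of BNIP3 and also a mitophagy receptor, had log2 differences of -0.077 and -0.24 in its 2 probes (limma adjusted p = 0.66 and 0.17). A dimmer probe of BCL2L1, ILMN_1742410, was called higher at 0.38 (limma adjusted p = 0.012), and the brightest had -0.038. Around DDIT4, none of 7 tested genes of mTORC1 control passed in limma, with log2 differences from -0.31 for MTOR (adjusted p = 0.055) to 0.23 for SESN2. Here too, 7 genes are too few to set against the 11.8% called among all named and tested genes. Around NDRG1, neither NDRG3 nor SGK1, the kinase that phosphorylates NDRG1, passed by its brightest probe, at 0.12 and 0.14. A dimmer probe of NDRG3 was called higher, at 0.36 (limma adjusted p = 0.041). For SGK1, ILMN_3229324 was called higher at 0.38 (limma adjusted p = 0.019), and ILMN_3305938 had 0.28 (limma adjusted p = 0.077). All tested SGK1 probes were bright, with mean normalised log2 levels of 12.1 to 12.5 in siLuc.

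Among the carbonic anhydrases and pH regulators, CA2, CA12 and CA13 were too dim to test, as CA9 was. SLC4A7, a bicarbonate transporter, had a log2 difference of -0.45 by its brightest probe (standard error 0.13, limma adjusted p = 0.036). Its other tested probe, ILMN_1808354, had -0.16 with overlapping groups (limma adjusted p = 0.33), while SLC4A4, another bicarbonate transporter, had -0.19 (limma adjusted p = 0.24). BSG, the chaperone of monocarboxylate transporters, had 0.37 (standard error 0.096, limma adjusted p = 0.019). Both calls ended without single arrays. SLC4A7 lost its call without siLuc replicate 1 or 2 or siTARDBP replicate 1 or 3, at limma adjusted p of 0.095 to 0.17 and log2 differences of -0.48 to -0.29. The call also ended with the arrays numbered 2 as a block (limma adjusted p = 0.052) and in the other 4 arrays alone (-0.57, limma adjusted p = 0.076). BSG lost its call without siLuc replicate 1 or 3 or siTARDBP replicate 1 or 3, at limma adjusted p of 0.054 to 0.081. Under scaling by the median of all probes BSG had 0.21 (standard error 0.15, limma adjusted p = 0.47).

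The probes most like each tested member were found by the root mean square difference over the 6 arrays between log2 profiles, each centred on its own siLuc mean, among 12308 probes with a gene name other than the member's. For BNIP3 they were IKBIP, at 0.063, and G3BP2, at 0.070. These read 978, 742 and 773 against 510, 414 and 417 for IKBIP, and 703, 473 and 505 against 376, 251 and 278 for G3BP2, in siLuc against siTARDBP. For ADM they were PRR14L at 0.017 and a probe annotated to MIR98 at 0.026, for NDRG1 EFNA1 at 0.031 and FBLN1 at 0.039, and for DDIT4 RASA3 at 0.045 and ASAP2 at 0.048. Likeness over 6 arrays is a description of these arrays only.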

How the data were processed

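The deposited table of linear, non-normalized probe intensity values was made by the authors with BeadStudio, per the labels, which do not name a version or any background subtraction. A deposited log2 table, with a median of 6.121 on every array and the rank order of each array's own intensities, was used as an alternative; its normalization method is not stated. Groups came from the sample titles. Median raw intensity was 64.4 to 83.0 per array, and the number of arrays limits the precision.

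Intensities were background-corrected by normexp (offset 50), quantile-normalised, taken to log2 and compared with lmFit and eBayes (R 4.3.3, limma 3.58.1), with Benjamini-Hochberg adjustment. The offset compresses fold changes of dim probes. The background level of an array is the value under which 95% of a symmetric background around its dim mode would lie (81.7 to 128), an estimate and not the scanner's detection call; 15197 probes (32.2%) exceeded it on at least 3 arrays. Symbols came from GEO's platform annotation, updated through Entrez identifiers; 30113 probes had 1 symbol, 8 several and 17110 none. The procedure was run on simulated arrays with known changes. Those had independent noise and no brightness or background differences between arrays, so they do not show how it handles such differences.

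The members and lists were chosen with earlier results of these data known. The rule for naming covered every member, TARDBP, the 3 largest rises and falls of each list among called genes with groups apart, and the 2 most alike probes of each tested member. Other genes and probes in the text fall outside this rule and were named with their values known. Among them are PAM, MTOR, SESN2 and the less bright called probes of BCL2L1, NDRG3 and SGK1. Alternatives changed the background correction, scaling, filter, eBayes settings, weights, blocks, value table and arrays included.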

Additional observations from a re-analysis of the deposited data

How the results depend on the processing

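BNIP3 was the 1 member called, lower, in all 19 alternatives run, and ADM, NDRG1 and DDIT4 were called in none of them. With no filter on dim probes, none of the VEGFA and CA9 probes passed the threshold (lowest limma adjusted p = 0.24). Over all tested probes, 887 were called higher and 808 lower. Scaling by the median of all probes gave 282 higher and 734 lower (27.8% higher against 52.3%), with a median shift of -0.087. In that setting BNIP3, ADM, LOX and BSG all had the same standard error, 0.15, unlike in the main fit. The change in its counts and p-values is therefore not one of log2 differences alone. The 4 arrays not numbered 2 gave 475 higher and 368 lower. With each array omitted in turn, the counts were 528 to 938 higher and 424 to 856 lower, lowest without siTARDBP replicate 3 and siLuc replicate 2; lower calls also fell to 513 without siLuc replicate 1 and 534 without siTARDBP replicate 1. Of the pathway genes, 2 were called higher under scaling by the median of all probes, 7 were higher and 12 lower when every tested probe was counted by itself, and leaving out 1 array gave 2 to 5 higher and 5 to 9 lower. With an offset of 16, the differences of changes between VEGFA probes were 0.29 (ILMN_1693060 minus ILMN_1803882) and 0.53 (ILMN_1693060 minus ILMN_2375879). A lower offset compresses dim signals less. The cause of these and the other shifts was not tested.

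The arrays numbered 2 had a lower background mode (59.1 and 59.5) than the other 4 (70.8 to 75.9). With them as a block, BNIP3 was called (limma adjusted p = 0.00095). Each block holds both groups in equal number, so its difference of -0.69 could not change, only the p-value. In the other 4 arrays the BNIP3 difference was -0.74 (limma adjusted p = 0.012), and between the 2 arrays numbered 2 it was -0.61, with no test. The labels do not say that the numbers pair arrays, so they were not taken as pairs. Same-numbered arrays had deviations correlated by 0.11, 0.10 and -0.0019, and differently numbered arrays of the 2 groups by -0.16 to 0.064. Whether the numbers mark pairs was not tested. With the replicate block, 909 probes were higher and 827 lower, and 10 pathway genes were lower and 4 higher. BNIP3 was called (limma adjusted p = 0.00087). Each replicate number holds an array of each group. The BNIP3 difference of -0.69 and the VEGFA differences of 0.14, 0.32 and 0.18 therefore could not change under this block. Signal over background limits what can be said of the 4 member probes that missed the filter.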
